A study of Mus musculus with 6 samples.

Results

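The transcripts of 10 genes that mark or build the conventional dendritic cell (cDC) lineage were followed in RNA-seq libraries of sorted mammary gland macrophages. The genes were *Zbtb46*, *Flt3*, *Itgax*, *Irf4*, *Irf8*, *Batf3*, *Xcr1*, *Itgae*, *Dpp4* and *Cd24a*, taken by symbol from a count table of 24061 gene symbols. All 10 had a row, and all 10 were among the 13348 genes that passed the filter on low counts. Cells were sorted as CD45+CD11b+F4/80+ and divided by surface Lyve-1, a hyaluronan receptor, into Lyve-1+ and Lyve-1- macrophages, with 3 libraries each. The mice were FVB/N, and each library pooled the #4 mammary glands of 4 mice after the inguinal lymph nodes had been taken out and the tissue digested with collagenase and DNase. Replicate 1 of each subset came from mice of 6 weeks, and replicates 2 and 3 from mice of 10 weeks. The gate given in the labels has no criterion on CD11c or MHC class II. The study's flow cytometry methods define resident macrophages of the gland as CD11c-, and whether that criterion was used in the sort for these libraries is not stated.

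Conventional dendritic cells take up antigen in tissue and carry it to lymph nodes, where they prime T cells. They arise from bone marrow precursors under Flt3 ligand, and they fall into cDC1, which depend on IRF8 and BATF3 and bear XCR1, and cDC2, which rely on IRF4 and often bear CD11b. Many of the genes are shared with other cells: CD11c, IRF4 and IRF8 are found in macrophages, CD103 and CD26 on T cells, and CD24 on B cells and mammary epithelium. The comparison of the subsets addressed how far transcripts of this lineage differed between the Lyve-1 classes. In bulk RNA of sorted cells, fewer cells of a type and less RNA per cell cannot be told apart.

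Library totals ran from 6478007 to 21406839 counts, so that 3 counts, the limit that a count of 0 allows, correspond to 0.14 to 0.463 CPM, the count scaled to a common library size. These limits cover counting error only. *Lyve1* stood at 1.43, 6.66 and 7.43 CPM in the Lyve-1- libraries and at 2352, 788 and 597 CPM in the Lyve-1+ libraries, in the direction of the sort labels. The gate genes *Itgam* (log2 fold change, Lyve-1+ minus Lyve-1-, 0.08, SE 0.25) and *Emr1*, an older symbol of *Adgre1* (-0.29, SE 0.28), overlapped between the subsets. The third gate gene, *Ptprc* (CD45), did not: it stood at 1693, 1210 and 1309 CPM in Lyve-1- and 645, 966 and 1128 CPM in Lyve-1+ (-0.62, SE 0.26; edgeR unadjusted p = 0.0307, adjusted p = 0.541). Olfactory receptor genes, which macrophages are not known to use, were listed above 0 for 4, 34 and 652 of 1122 genes in the Lyve-1- libraries, in the order of their replicate numbers, and for 370, 134 and 5 in the Lyve-1+ libraries. The third Lyve-1- library and the first Lyve-1+ library had the most such genes, and results were also computed without them. By counts per kb of exon over these genes, the third Lyve-1- library was again the highest (2.65). On that measure the second Lyve-1+ library (1.18) was above the first (1.02).

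None of the 10 genes passed the call, which asked for an adjusted p under 0.01 and an absolute log2 fold change between 1 and 10 in edgeR's quasi-likelihood test. Among all genes tested, 15 were called, which is 0.112%. *Lyve1*, the gene of the sort, was not called either (log2 fold change 7.93, SE 0.94, edgeR adjusted p = 0.0254). A large difference can thus fail this call, so the absence of called members does not show equal levels. By DESeq2 the count of called members was also 0, against 0.952% of all genes. At an unadjusted p under 0.05, edgeR gave 1 member, *Cd24a*, against 7.69% of all genes, and DESeq2 gave 2, *Cd24a* and *Xcr1*, against 6.99%. This count depended on the model. In edgeR it was 3 with age as a covariate (1047 of 13348 genes) and 3 with the replicate block (1195 of 13348). It was 4 without the filter (1273 of 21663) and 0 without Lyve-1+ replicate 1 (758 of 14222). The direction was less even: 9 of the 10 had a lower fitted level in Lyve-1+ macrophages, against 50.6% of all genes, with a median log2 fold change of -0.89 against -0.01 over all genes tested. Summed over the 10 genes, the level was 894, 882 and 828 CPM in the Lyve-1- libraries and 392, 527 and 669 CPM in the Lyve-1+ libraries. The sums of the subsets did not overlap, although the levels of 9 single genes did. Of all single genes tested, 6.5% had every Lyve-1+ library below every Lyve-1- library, and no such share was computed for sums. By mean level the Lyve-1- sums rested most on *Irf4* and *Cd24a*, both shared with other cells. Their means were 286 and 180 CPM in Lyve-1- and 206 and 56.2 CPM in Lyve-1+. Without the 2 libraries richest in olfactory receptor genes, 7 of the 10 had a lower fitted level and the median was -0.59.

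**Figure D1:**
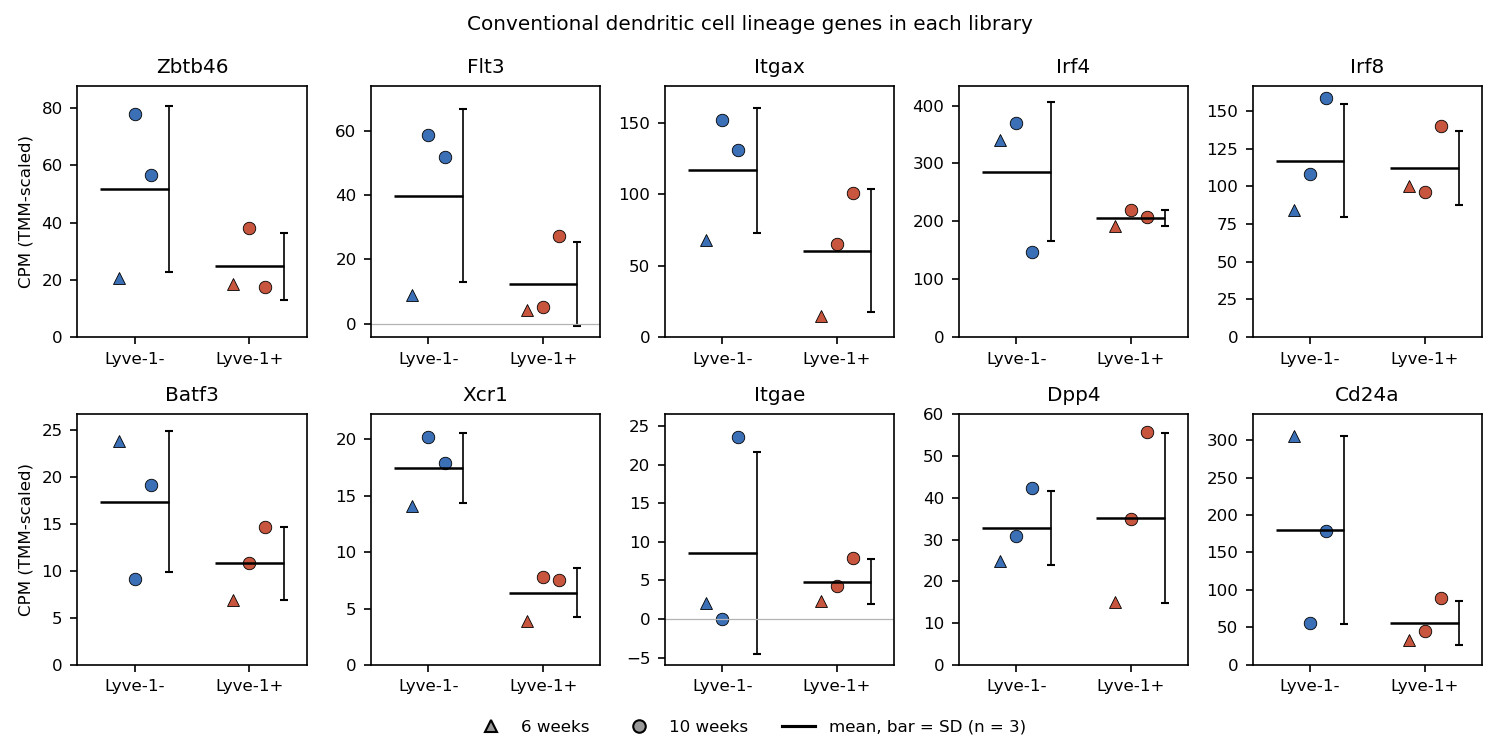
CPM (vertical axes, scaled by TMM) of each cDC lineage gene in the 3 Lyve-1- and 3 Lyve-1+ libraries, with triangles for 6 weeks, circles for 10 weeks, lines for means and bars for the SD of 3 libraries. *Xcr1* is the gene of the 10 in which all Lyve-1+ libraries lie below all Lyve-1- libraries.

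*Zbtb46* (ENSMUSG00000027583.13, chr2:181387762-181459426, minus strand, GRCm38) encodes a zinc finger factor that marks cDCs and their committed precursors. It was measured at 20.8, 77.8 and 56.7 CPM in the Lyve-1- libraries and at 18.4, 38.1 and 17.5 CPM in the Lyve-1+ libraries. Both 6-week libraries were low, the 10-week Lyve-1- libraries were the highest, and the subsets overlapped. The log2 fold change was -1.06 (SE 0.55, 95% interval -2.24 to 0.11; edgeR adjusted p = 0.733), an interval that includes 0. At 10 weeks the Lyve-1- libraries both lay above both Lyve-1+ libraries, whereas at 6 weeks the levels were 20.8 and 18.4 CPM.

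*Flt3* (ENSMUSG00000042817.15, chr5:147330741-147400489, minus strand) encodes the receptor tyrosine kinase through which Flt3 ligand drives dendritic cell development. Its levels were 8.91, 58.7 and 51.9 CPM in the Lyve-1- libraries and 4.19, 5.17 and 27.3 CPM in the Lyve-1+ libraries. The 10-week Lyve-1- libraries were again the highest, and the 6-week Lyve-1- library lay among the Lyve-1+ libraries. The difference was -1.71 on the log2 scale (SE 0.84, interval -3.51 to 0.09; edgeR adjusted p = 0.688), the lowest of the 10 fold changes. Lyve-1+ replicate 3 held most of the *Flt3* counts of its subset. Without it the log2 fold change was -3.10 (edgeR adjusted p = 0.0653).

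*Itgax* (ENSMUSG00000030789.9, chr7:128129547-128150657, plus strand) encodes CD11c, the integrin chain by which dendritic cells are usually gated and which macrophages of several tissues also carry. It stood at 68.1, 152 and 131 CPM in the Lyve-1- libraries and at 15.1, 65.3 and 101 CPM in the Lyve-1+ libraries. In each subset the 6-week library was the lowest, and the subsets overlapped through the 6-week Lyve-1- and a 10-week Lyve-1+ library. The log2 fold change was -0.95 (SE 0.56, interval -2.18 to 0.27; edgeR adjusted p = 0.868). With age as a covariate it was -1.22 (SE 0.38, edgeR adjusted p = 0.215).

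The 3 transcription factors that direct the split into cDC1 and cDC2 showed smaller differences. *Irf4* (ENSMUSG00000021356.10, chr13:30749226-30766976, plus strand), needed for cDC2 function, stood at 341, 370 and 148 CPM in the Lyve-1- libraries and at 192, 219 and 207 CPM in the Lyve-1+ libraries. The lowest and the 2 highest libraries were all Lyve-1-. The Lyve-1+ libraries lay close together, with a mean of 206 ± 13.6 CPM (SD, n = 3) against 286 ± 121 CPM, and the log2 fold change was -0.48 (SE 0.32, interval -1.17 to 0.22; edgeR adjusted p = 0.948). *Irf8* (ENSMUSG00000041515.10, chr8:120736358-120756694, plus strand), which specifies cDC1 and also acts in monocytes, stood at 84.5, 108 and 158 CPM in the Lyve-1- libraries and 100, 96.0 and 140 CPM in the Lyve-1+ libraries. The subsets were interleaved. The *Irf8* difference was -0.06 (SE 0.33, interval -0.76 to 0.64), so a change within that interval, either way, was not detectable with these libraries. *Batf3* (ENSMUSG00000026630.9, chr1:191097847-191108945, plus strand), the AP-1 family factor that sustains cDC1, stood at 23.8, 9.15 and 19.1 CPM in the Lyve-1- libraries and 6.93, 10.8 and 14.6 CPM in the Lyve-1+ libraries. Again the ranges overlapped, with a log2 fold change of -0.68 (SE 0.80, interval -2.39 to 1.02).

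*Xcr1* (ENSMUSG00000060509.4, chr9:123852315-123862029, minus strand) encodes the chemokine receptor by which cDC1 sense XCL1, and it is among the genes most particular to cDC1. It stood at 14.1, 20.3 and 17.9 CPM in the Lyve-1- libraries and at 3.89, 7.81 and 7.56 CPM in the Lyve-1+ libraries. Every Lyve-1+ library lay below every Lyve-1- library, a pattern that 6.5% of all genes tested shared, and *Xcr1* was the 1 member with it. The means were 17.4 ± 3.10 and 6.42 ± 2.20 CPM (SD, n = 3), and the log2 fold change was -1.44 (SE 0.88, interval -3.33 to 0.44; edgeR adjusted p = 0.883; DESeq2 unadjusted p = 0.0438, adjusted p = 0.503). The counts behind these levels ran from 51 to 228 per library. The density of reads over olfactory receptor genes would account for 9.61% of the *Xcr1* counts in the third Lyve-1- library and 8.91% in the first Lyve-1+ library, if it were laid evenly over exons.

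The other surface proteins among the members did not share the *Xcr1* pattern. *Itgae* (ENSMUSG00000005947.11, chr11:73090583-73147446, plus strand), the CD103 chain that pairs with the beta 7 integrin to bind E-cadherin, was the least abundant member. Its levels were 2.02, 0 and 23.6 CPM in the Lyve-1- libraries and 2.29, 4.26 and 7.94 CPM in the Lyve-1+ libraries, from 0 to 162 counts. The highest and the lowest library were both Lyve-1-, and the highest was the library with the most olfactory receptor genes. Its difference of -0.82 (SE 1.77, interval -4.60 to 2.96) turned to 2.25 without Lyve-1- replicate 3. *Gsg2*, an older symbol of *Haspin*, lies inside *Itgae* on the other strand with no shared exon. In the order of replicate numbers it had 0, 0 and 96 counts in the Lyve-1- libraries and 15, 54 and 0 in the Lyve-1+ libraries. The density over olfactory receptor genes would make up 7.50% of the *Itgae* counts of Lyve-1- replicate 3 and 15.6% of those of Lyve-1+ replicate 1.

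*Dpp4* (ENSMUSG00000035000.8, chr2:62330073-62412231, minus strand), the CD26 dipeptidase found on cDC1 and T cells, was the member with a positive fold change, which turned negative under 4 of the alternatives. It stood at 25.0, 30.9 and 42.4 CPM in the Lyve-1- libraries and at 15.1, 34.8 and 55.8 CPM in the Lyve-1+ libraries. The highest and the lowest library were both Lyve-1+, and the difference was 0.10 (SE 0.54, interval -1.04 to 1.25). An antisense gene, *Gm13561*, shares 232 exonic bases with *Dpp4*. The strand setting of the counting is not given in the sources used here, so reads of the antisense gene could be counted in *Dpp4*.

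*Cd24a* (ENSMUSG00000047139.9, chr10:43578284-43584265, plus strand), a small glycosylated membrane anchor protein used to gate cDC1, stood at 306, 55.3 and 179 CPM in the Lyve-1- libraries and at 33.6, 45.2 and 89.8 CPM in the Lyve-1+ libraries. Lyve-1- replicate 2 fell between the Lyve-1+ libraries, and the other two Lyve-1- libraries lay above all of them. The log2 fold change was -1.68 (SE 0.56, interval -2.92 to -0.45; edgeR unadjusted p = 0.0120, adjusted p = 0.359; DESeq2 adjusted p = 0.0989), the 1 interval of the 10 that did not reach 0. Summed markers of mammary epithelium, which also carries CD24, had the same order as *Cd24a* over the Lyve-1- libraries but not over the Lyve-1+ libraries. Of 11 such genes, none of them at 0 in every library, 10 had a lower fitted level in Lyve-1+, against 50.6% of all genes. The summed level of the 11 genes was 390, 45.0 and 228 CPM in Lyve-1- and 116, 135 and 94.6 CPM in Lyve-1+, with overlap. *Krt18*, the most abundant of them, stood at 140, 9.24 and 51.6 CPM in the Lyve-1- libraries, the same order as *Cd24a*. In the Lyve-1+ libraries it stood at 24.8, 39.0 and 19.2 CPM, lowest in the library in which *Cd24a* was highest. The gate on CD45 is meant to leave out epithelial cells, and transcripts of these markers were counted in every library. The part of epithelial transcripts in the *Cd24a* difference was not tested. Intronless copies of *Cd24a* are known in the mouse genome, and how reads that map to several places were counted is not given in the sources used here. In the 10-week libraries alone the *Cd24a* log2 fold change was -0.79.

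**Figure D2:**
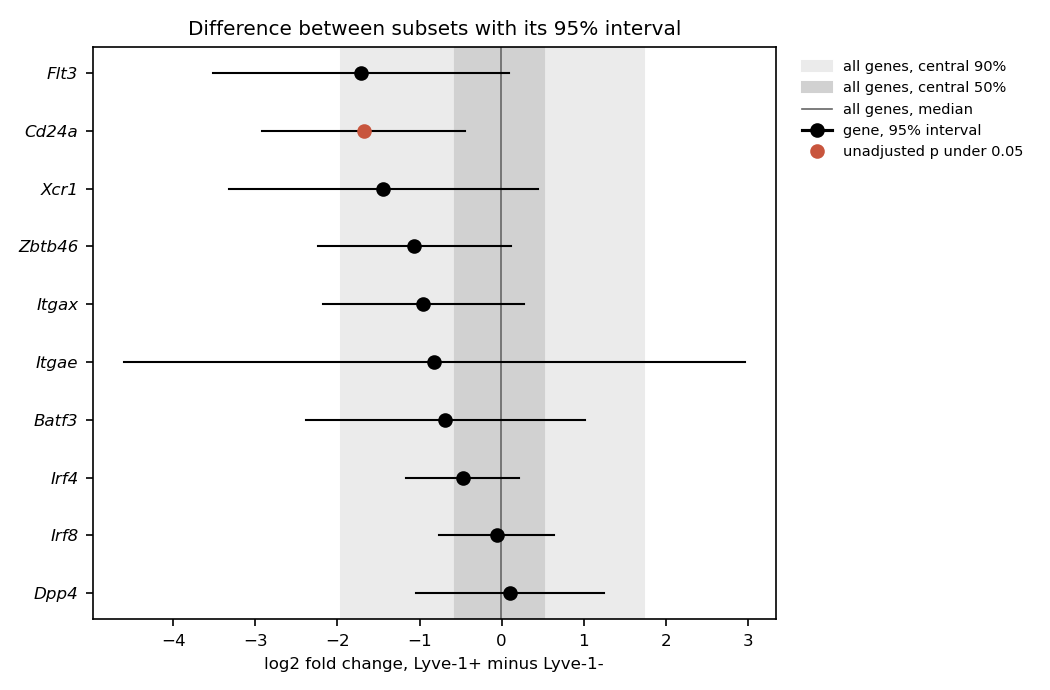
Log2 fold change of each gene (horizontal axis, Lyve-1+ minus Lyve-1-) with its 95% interval, over grey bands for the middle of the distribution of all 13348 genes tested. Of the 10 genes, 9 lie below 0, and the interval of *Cd24a* ends at -0.45 whereas the others cross 0.

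Compared per kilobase of exon, the mean over the 6 libraries was highest for *Irf4* (50.2 CPM per kb) and *Cd24a* (45.8), followed by *Itgax* (18.5), *Irf8* (16.3) and *Batf3* (8.81). *Dpp4* (5.38), *Zbtb46* (4.49), *Flt3* (4.22), *Xcr1* (2.68) and *Itgae* (1.46) formed the lower end on the same scale. Of the 9 neighbouring pairs in this order, *Batf3* and *Dpp4* kept it in 6 of 6 libraries, and *Cd24a* and *Itgax*, *Irf8* and *Batf3*, and *Dpp4* and *Zbtb46* each kept it in 5. The other 5 pairs kept it in 3 or 4 libraries, so that their order does not exceed the spread between libraries. The order also depended on the subset. In Lyve-1- libraries the mean of *Cd24a* (69.8 CPM per kb) was above that of *Irf4* (58.4), and *Flt3* (6.45) and *Zbtb46* (6.08) were above *Dpp4* (5.19). In Lyve-1+ libraries *Irf8* (15.9) was above *Itgax* (12.6).

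In 5 of the 10 genes the Lyve-1+ library lay below the Lyve-1- library of the same number for all 3 numbers, against 13.8% of all genes. These were *Zbtb46*, *Flt3*, *Itgax*, *Xcr1* and *Cd24a*. The labels do not say that a number marks a shared pool of mice, and the correlations between libraries could not settle it. The order is therefore given as a description only. To show the DNA ahead of the genes that shared this order, the 250 bases before the RefSeq start site (GRCm38.p6) are given for the 4 of them with an entry, 5′ to 3′ on the gene's strand. Capitals mark matches to GGAAGT, the core of sites for ETS factors such as PU.1, and to TGANTCA, the AP-1 site, the latter also as part of the AP-1 and IRF composite, in which GAAA directly precedes TGANTCA, each searched on both strands.
Xcr1, chr9:123862030-123862279, minus strand: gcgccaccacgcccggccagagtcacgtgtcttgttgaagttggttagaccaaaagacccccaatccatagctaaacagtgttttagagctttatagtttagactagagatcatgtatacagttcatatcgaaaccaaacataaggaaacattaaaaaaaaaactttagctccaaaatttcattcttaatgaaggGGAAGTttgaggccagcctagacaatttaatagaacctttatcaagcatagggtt
Flt3, chr5:147400490-147400739, minus strand: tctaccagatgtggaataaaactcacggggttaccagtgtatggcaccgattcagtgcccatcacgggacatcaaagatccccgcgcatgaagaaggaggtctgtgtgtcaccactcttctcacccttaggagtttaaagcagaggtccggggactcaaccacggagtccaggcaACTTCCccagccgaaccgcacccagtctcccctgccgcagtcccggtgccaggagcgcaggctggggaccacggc
Itgax, chr7:128129300-128129549, plus strand: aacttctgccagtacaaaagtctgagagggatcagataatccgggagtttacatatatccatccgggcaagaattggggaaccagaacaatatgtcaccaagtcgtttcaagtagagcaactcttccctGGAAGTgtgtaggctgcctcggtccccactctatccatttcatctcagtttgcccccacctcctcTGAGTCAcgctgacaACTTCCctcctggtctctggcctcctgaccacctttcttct
Zbtb46, chr2:181424389-181424638, minus strand: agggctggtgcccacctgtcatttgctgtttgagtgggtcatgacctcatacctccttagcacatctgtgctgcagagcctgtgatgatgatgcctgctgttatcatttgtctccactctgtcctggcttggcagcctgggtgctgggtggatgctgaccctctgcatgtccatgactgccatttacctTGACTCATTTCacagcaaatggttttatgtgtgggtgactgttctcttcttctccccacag
In the *Xcr1* window the capitals are an ETS match 55 to 50 bases before the start. The *Flt3* window has an ETS match 75 to 70 bases before the start, on the other strand. The *Itgax* window has ETS matches 121 to 116 and 41 to 36 bases before the start and an AP-1 match 56 to 50 bases before it. In *Zbtb46* the composite match covers bases 61 to 51 and overlaps an AP-1 match. Its window lies inside the gene: in 4 of the 5 annotated transcripts the RefSeq start used here is the first base of a later exon, so that the bases shown are intronic for them.

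Of the 8 members with a window, 5 held the ETS letters (*Batf3*, *Dpp4*, *Flt3*, *Itgax* and *Xcr1*), which 19.7% of all 32851 windows held. The AP-1 letters were in the windows of 2 members, *Itgax* and *Zbtb46*, against 6.75% of all windows. The AP-1 and IRF composite, which contains the AP-1 letters, was in that of *Zbtb46*, against 0.1%. The interferon response element, searched as GAAA, 2 free bases and GAAA, was in the *Dpp4* window, against 2.98%, and the ETS and IRF composite, searched as GGAA, 2 free bases and GAAA, was in none of the member windows, against 2.3%. Letters that match are not shown to be bound, and the libraries hold no measure of binding.

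Age was compared with the subset as a second term, over 2 libraries of 6 weeks and 4 of 10 weeks. No member was called, nor was any gene (0%), and 2 members had an unadjusted p under 0.05, against 3.33% of all genes. *Itgax* was higher at 10 weeks by 1.69 on the log2 scale (SE 0.43, interval 0.78 to 2.61; edgeR unadjusted p = 0.00118, adjusted p = 0.559). *Flt3* was higher by 2.28 (SE 0.78, interval 0.64 to 3.92; edgeR unadjusted p = 0.00944, adjusted p = 1.00). *Dpp4* was the member in which every 10-week library lay above every 6-week library, with 25.0 and 15.1 CPM at 6 weeks and 30.9 to 55.8 CPM at 10 weeks. That order was seen for 4.47% of all genes, and the *Dpp4* log2 difference was 1.04 (SE 0.58, interval -0.18 to 2.26). In all, 7 of the 10 members had a higher fitted level at 10 weeks, against 53.6% of all genes. For *Irf4* and *Batf3* the age differences were -0.13 (SE 0.34) and -0.02 (SE 0.96).

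Whether the subset difference changed with age was tested as an interaction, with 1 library per subset at 6 weeks. No member was called, nor was any gene (0%), and 1 member, *Cd24a*, had an unadjusted p under 0.05, against 4.59% of all genes. Its levels at 6 weeks were 306 CPM in Lyve-1- and 33.6 CPM in Lyve-1+, and its 10-week means were 117 and 67.5 CPM. The *Cd24a* interaction was 2.39 on the log2 scale (SE 0.97; edgeR unadjusted p = 0.0306, adjusted p = 0.976).

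The partners of the members were read from lists of related genes. No gene of the dendritic, ligand, transcription factor, integrin or peptidase lists passed an adjusted p of 0.05 in edgeR, which 0.629% of all genes did. *Flt3l*, the ligand of FLT3, was low in both subsets, at 3.44, 9.86 and 2.04 CPM in Lyve-1- and 8.76, 13.8 and 9.32 CPM in Lyve-1+, with a log2 fold change of 1.05 (SE 1.24). *Xcl1*, the ligand of XCR1, had 14 counts in Lyve-1- replicate 3 and 0 in each of the other 5 libraries and was not tested. *Csf2rb*, the shared beta chain of the GM-CSF receptor, did not overlap: the log2 fold change was -1.26 (SE 0.30; edgeR unadjusted p = 0.000779, adjusted p = 0.0873). Of the 8 genes tested on this ligand and growth factor list, 5 had a lower fitted level in Lyve-1+, 3 of them at an unadjusted p under 0.05, with a median of -0.54. The lowest was *Csf2* (-1.84), which stood at 2.93 CPM or less in every library.

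*Itgb2*, the beta chain that pairs with CD11c, had a log2 fold change of -0.31 (SE 0.24), and *Itgb7*, the partner of CD103, of -1.07 (SE 0.51; edgeR adjusted p = 0.662). *Cdh1*, the E-cadherin that CD103 binds, differed by -0.61 (SE 1.19). Of 8 integrin partners and ligands, 6 had a lower fitted level and 2 a higher one, from *Itgad* (-2.25) to *Itgal* (0.23), with a median of -0.59. The other IRF and BATF genes were centred near all genes, with a median of -0.19 over 9 genes, the highest being *Batf2* (2.60). *Batf*, which can stand in for BATF3, differed by -0.33 (SE 0.40). The relatives of DPP4 had a median of 0.14 over 5 genes, from *Fap* (-2.21) to *Dpp7* (1.31).

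The lists of other cDC genes differed among themselves. Of 20 core cDC genes, 18 had a lower fitted level in Lyve-1+, 9 of them at an unadjusted p under 0.05 (3.5% of all genes), with a median log2 fold change of -1.42 and none past an adjusted p of 0.05. The highest fold change among them was that of *Btla* (1.65, SE 1.19). Of 12 cDC1 genes, 10 had a lower fitted level, 3 of them at an unadjusted p under 0.05, with a median of -0.72. They ran from *Cadm1* (-2.13, SE 0.62; edgeR adjusted p = 0.208), an adhesion molecule of cDC1, to *Tlr3* (1.81, SE 1.78). *Id2*, the helix-loop-helix factor needed for cDC1, stood at 487, 331 and 417 CPM in Lyve-1- and 117, 195 and 212 CPM in Lyve-1+, without overlap (-1.24, SE 0.29; edgeR unadjusted p = 0.000773, adjusted p = 0.0873). The 10 cDC2 genes had a median of 0.02, with 4 lower, 1 of them at an unadjusted p under 0.05, and 6 higher, 2 of them at such a p. They ran from *Ltb* (-1.94, SE 1.65) to *Esam* (1.54, SE 1.92). The 3 genes past that p, named after their values were seen, were *Relb* (-1.16, SE 0.34) on the lower side and *Clec10a* (1.01, SE 0.28) and *Klf4* (0.89, SE 0.30) on the higher side, and the levels of *Relb* and *Clec10a* did not overlap between the subsets. The summed cDC2 genes stood at 2822 to 3536 CPM in Lyve-1- and 3308 to 4553 CPM in Lyve-1+, with overlap. The part of the sorted macrophages themselves in these levels was not tested. Genes of mature dendritic cells had the lowest median of these lists, -2.84, with 9 of 10 lower and 6 of them at an unadjusted p under 0.05. The lowest was *Ccl22* (-3.77, SE 1.17), a chemokine of mature dendritic cells, and the highest *Cd200* (2.14, SE 1.42). Their summed level was 954, 2067 and 2596 CPM in Lyve-1- and 543, 617 and 590 CPM in Lyve-1+. Both 10-week Lyve-1- libraries were the highest, which was also so for *Flt3* and *Zbtb46*.

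**Figure D3:**
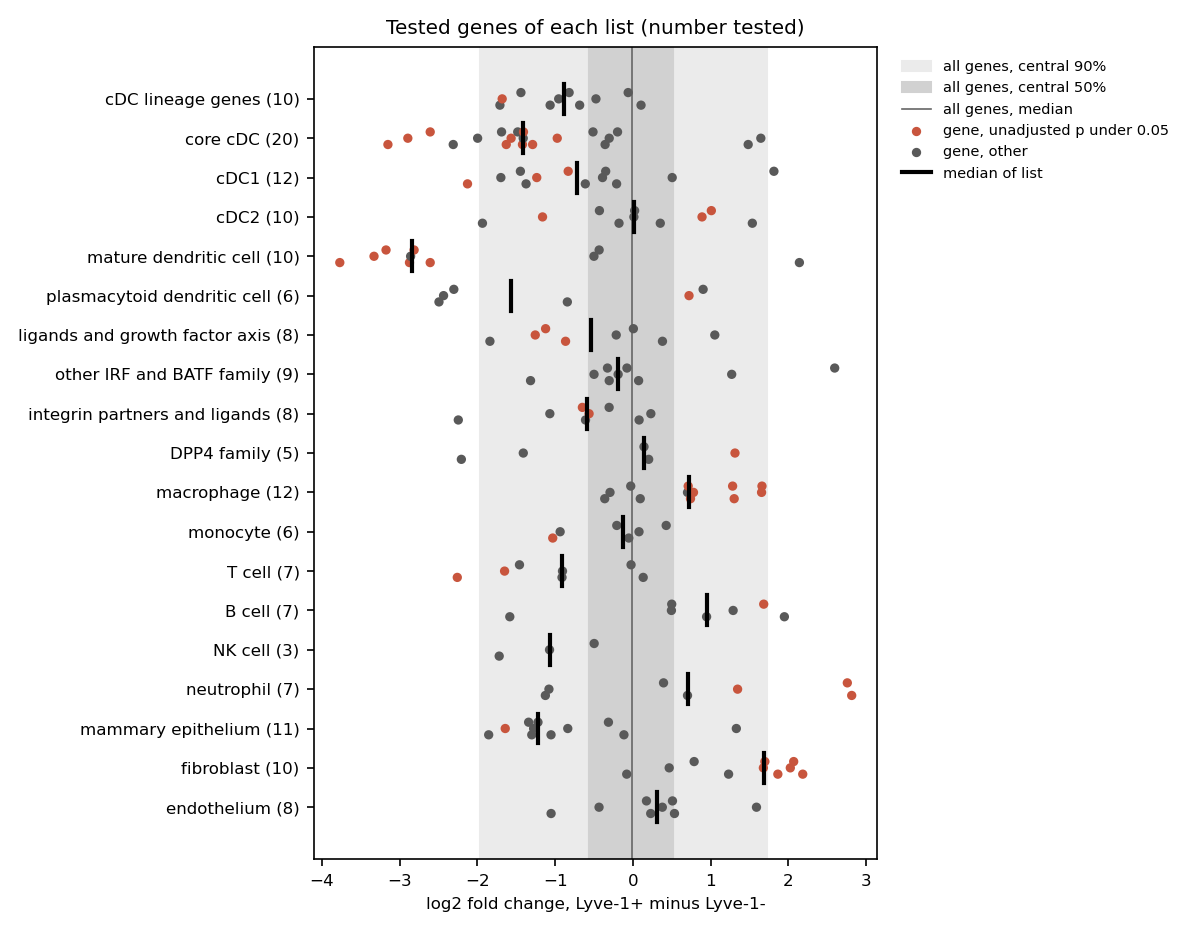
Log2 fold change (horizontal axis, Lyve-1+ minus Lyve-1-) of every tested gene in each list, with the number tested in parentheses, red points for an unadjusted p under 0.05 and black bars for medians, over grey bands for all genes tested. The cDC lineage, core cDC and mature dendritic cell lists have medians of -0.89, -1.42 and -2.84, and the cDC2 list of 0.02.

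Markers of other cells also differed between the libraries. No background share was computed for sums that did not overlap between the subsets. The summed T cell markers, among which *Cd2* was the most abundant, stood at 236 to 276 CPM in Lyve-1- and 53.6 to 227 CPM in Lyve-1+, without overlap. Of the 7 T cell genes tested, 6 had a lower fitted level, and none of those in the table was at 0 in every library. Summed macrophage markers ran from 8351 to 11973 CPM in Lyve-1- and from 11244 to 13461 CPM in Lyve-1+, with 9 of 12 higher, 7 of them at an unadjusted p under 0.05 (4.2% of all genes) and *C1qa* at an adjusted p of 0.0376 in edgeR. Fibroblast markers stood at 1067 to 1246 CPM in Lyve-1- and 1852 to 7371 CPM in Lyve-1+, and neutrophil markers at 139 to 230 CPM and 262 to 577 CPM, neither with overlap. Summed plasmacytoid dendritic cell markers stood at 154 to 241 CPM in Lyve-1- and 255 to 279 CPM in Lyve-1+, again without overlap, although the median of their log2 fold changes was negative. *Tcf4*, the most abundant of them, was higher in Lyve-1+ (0.72, SE 0.28; edgeR adjusted p = 0.454), and 4 of the 6 tested, each less abundant than *Tcf4*, had a lower fitted level. The medians of the remaining lists were -1.57 for plasmacytoid dendritic cells (6 genes), -0.13 for monocytes (6), 0.95 for B cells (7), -1.07 for NK cells (3) and 0.30 for endothelium (8), and none of the erythroid genes was tested. Before scaling, a larger share of counts taken by other cells lowers the CPM of every other gene in that library. The TMM scaling used here is meant to offset this. The part of these differences in the levels of the cDC lineage genes was not tested.

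**Figure D4:**
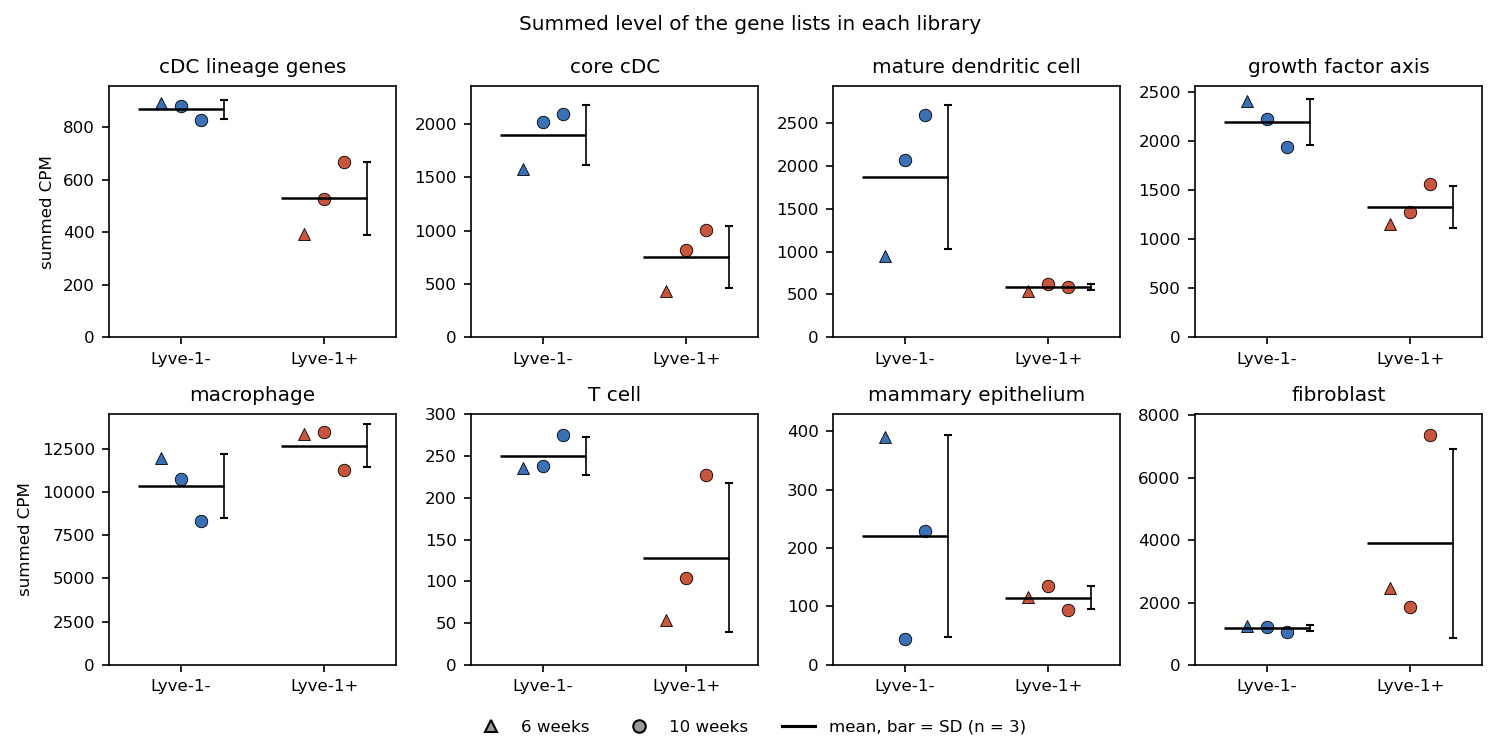
Summed CPM (vertical axes) of 8 gene lists in each library, with triangles for 6 weeks, circles for 10 weeks, lines for means and bars for the SD of 3 libraries. The cDC lineage sums lie at 828 to 894 in Lyve-1- and 392 to 669 in Lyve-1+, and fibroblast and macrophage sums have higher means in Lyve-1+.

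The genes whose pattern over the 6 libraries was most like that of the 3 most cDC-restricted members were found by the root mean square difference of log2 CPM, with each gene centred on its own mean so that its level did not count. For *Zbtb46* they were *Zdhhc4* (0.18), *Rrad* (0.26) and *Rbm4b* (0.28). For *Flt3* they were *H2-Ob* (0.43), *Adam23* (0.56) and *4930577N17Rik* (0.56), and for *Xcr1* they were *Pilra* (0.15), *Lime1* (0.16) and *Myo1g* (0.21). The nearest member to *Zbtb46* was *Xcr1*, in place 355 of all genes. To *Flt3* and *Xcr1* it was *Itgax*, in places 63 and 474. With 6 libraries many genes come this close, and the members were not each other's nearest genes.

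Across 18 alternatives in normalization, filter, model, libraries and threshold, 7 of the 10 genes had a negative log2 fold change each time. The alternative with an adjusted p under 0.05 changed only the threshold, so its fold changes were those of the reported fit. *Xcr1* moved least among the genes below -1, from -1.62 to -1.17. *Zbtb46* ran from -1.54 to -0.64, *Flt3* from -3.10 to -1.08, *Cd24a* from -2.21 to -0.79 and *Itgax* from -1.56 to -0.43. The sign of *Itgae*, *Irf8* and *Dpp4* depended on the setting, so no direction is given for them.

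**Figure D5:**
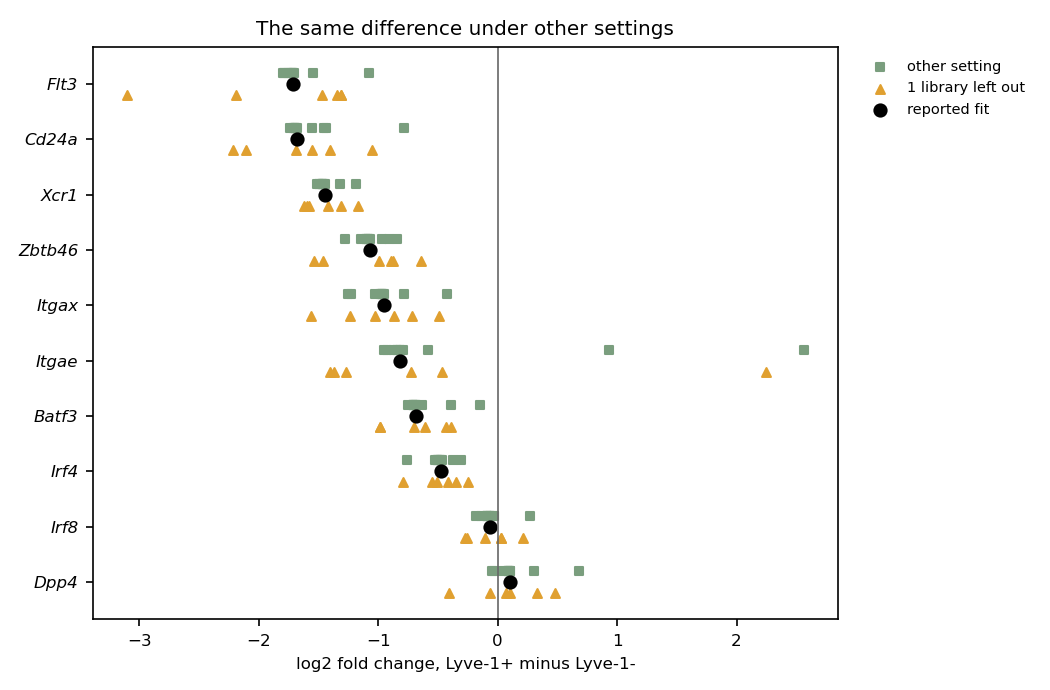
Log2 fold change (horizontal axis, Lyve-1+ minus Lyve-1-) of each gene in the reported fit (black), with 1 library left out (orange triangles) and under other settings (green squares). *Itgae*, *Irf8* and *Dpp4* cross 0, and the other genes stay below it under every setting run.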

How the data were processed

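RNA was measured in 6 libraries, each from sorted cells pooled from 4 mice, made with a stranded total RNA kit. Per the labels and the study's methods, the authors placed read pairs of 50 bp on mm10 (GRCm38) with HISAT2 2.0.2 and counted them with featureCounts 1.5.0 of Subread. The deposited values are whole-number counts per gene symbol, with no normalization. The gene annotation, strand setting and treatment of multiply mapped reads are not given in the sources used here. The methods name a removal of genes under 300 bp and of an outlying 6-week library.

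Counts were fitted with edgeR 4.0.16 (R 4.3.3, limma 3.58.1), with filterByExpr by subset, TMM scaling and the robust quasi-likelihood F test, and p-values were adjusted by Benjamini-Hochberg over all 13348 genes. SEs were taken from the fold change and the F statistic, so the 95% intervals are approximate. Log2 CPM used a prior count of 2. DESeq2 1.42.0 was an alternative. The script was tested on simulated data. Positions and exonic lengths came from GENCODE M21. Of the members, 8 had promoter windows in the RefSeq table. P-values measure the spread between pools.

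Members and lists were chosen with earlier results of these data known. Every member was named. From the lists of related genes those named were past an adjusted p of 0.05, had the highest or lowest fold change, or were direct partners (*Flt3l*, *Xcl1*, *Csf2rb*, *Itgb2*, *Itgb7*, *Cdh1*, *Batf* and *Id2*). From marker lists of other cells the most abundant gene, or one past an adjusted p of 0.05, was named where a result touched it. *Gsg2*, after its counts were seen, and *Gm13561* were named for their positions. Some of these genes are not reported here.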

Additional observations from a re-analysis of the deposited data

How the results depend on the processing

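No member was called under the alternatives, except *Cd24a* without a filter on low counts (-1.69, edgeR adjusted p = 0.000439), which gave 1 called member. Across all genes the 15 calls became 151 with DESeq2, 188 without the filter, 32 with at least 10 counts in every library, 58 with age as a covariate, 84 at an adjusted p under 0.05, and 1 to 81 when 1 library was left out, from 1 without Lyve-1- replicate 3 to 81 when the second Lyve-1+ library was dropped. Without a single other library the count was 65 (Lyve-1- replicate 1), 35 (Lyve-1- replicate 2), 23 (Lyve-1+ replicate 1) or 46 (Lyve-1+ replicate 3). The replicate number as a block gave 140 calls and no called member. The deviations of same-numbered libraries from their subset means correlated at r = -0.05, -0.00 and -0.15. Those of differently numbered libraries ran from -0.10 to 0.16. With 3 libraries per subset these values cannot show whether pools were shared. The labels name no shared pools, and the reported fit had no pairing. *Itgae* reversed under the replicate block (0.93), without Lyve-1- replicate 3 (2.25) and in the absence of both libraries with most olfactory receptor genes (2.56). *Irf8* reversed without Lyve-1- replicate 3 (0.22), Lyve-1+ replicate 1 (0.03), Lyve-1+ replicate 2 (0.03) or both libraries with most olfactory receptor genes (0.27). *Dpp4* reversed under the replicate block (-0.049), with age as a covariate (-0.034), and when Lyve-1- replicate 1 (-0.06) or Lyve-1+ replicate 3 (-0.41) was left out. Over the fits that left out 1 library, *Itgae* ran from -1.40 to 2.25, *Irf8* from -0.27 to 0.22 and *Dpp4* from -0.41 to 0.48. The cause was not tested. Leaving out both libraries with most olfactory receptor genes, and subtracting their density, were chosen after seeing the data and gave 0 and 11 calls. *Zbtb46*, *Flt3*, *Xcr1*, *Irf4*, *Batf3*, *Cd24a* and *Itgax* had negative fold changes under all 18 settings, among which the change of the adjusted p limit could not alter a sign. Over the settings 7 to 10 members had a negative fold change, and the median of the members ran from -1.18 to -0.48 (without Lyve-1+ replicates 3 and 1). *Itgae* could not be fitted with at least 10 counts in every library. *Itgae*, the least abundant member, had 0 to 162 counts per library. The 162 counts were in the library with the smallest total (6478007), and the 0 in one with a total of 11230207.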
